A study of Drosophila melanogaster with 9 samples.

Results

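The miRNAs of adult Drosophila melanogaster midguts were compared between a late and a first stage of gut regeneration, taken as the 3 libraries labelled Pe day 3 against the 3 labelled Pe day 0, which are 6 of the 9 libraries in the study. The Pe day 3 flies received the treatment that the labels call Pe and were 7 to 8 days old. The Pe day 0 flies received the same treatment and were 4 to 5 days old. The 3 remaining libraries, labelled mock day 0, came from flies given sucrose, also 4 to 5 days old, and they are given beside the main comparison as a baseline. All flies were wild type of the Oregon-R strain, and each library was made with a small RNA kit from total RNA of midguts. The study set out to examine the start and the end of regeneration. Stage and age differ together between the Pe groups and cannot be told apart here, and no mock library of the older age was analysed. The sources used here do not spell out Pe or say whether libraries labelled as replicates came from separate groups of flies, so a p-value measures only the spread between these libraries, which may be technical.

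A miRNA is cut from a hairpin precursor whose arms each can give a mature strand, named 5p and 3p. The strand that is loaded into Argonaute pairs through its seed, a short stretch near its 5′ end, with messenger RNAs and lowers their output, while the other strand is usually degraded. The fly midgut is a single-layered epithelium of absorptive enterocytes and hormone-secreting enteroendocrine cells, wrapped in visceral muscle. After damage, intestinal stem cells divide and their daughters, the enteroblasts, mature into new enterocytes until the epithelium is rebuilt and division subsides. Several fly miRNAs act in this sequence, among them miR-8, which lowers the progenitor factor escargot as enteroblasts mature, and miR-305, which tunes Notch and insulin signalling in stem cells.

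The deposited table lists 467 miRNAs, of which 145 were above 0 in at least 1 library. Total depth was 224873 to 864119 reads in Pe day 3 libraries, 296702 to 1238105 in Pe day 0 libraries and 363095 to 707747 in mock libraries. A filter of 10 reads at the median depth, equal to 20.1 RPM (reads after each library is set to a total of 1e+06), in at least 3 libraries left 73 miRNAs. Levels below are RPM after trimmed-mean (TMM) scaling, called scaled RPM, and a value set beside ± is an SD over 3 libraries unless it is named as an SE. A list of 6 adult midgut hairpins, led by miR-956-3p, had 10 of its 11 arms above 0. It summed to 779000 to 814000 RPM in Pe day 3, 806000 to 847000 RPM in Pe day 0 and 791000 to 827000 RPM in mock libraries. miR-956-3p alone made up 69.8% to 80.2% of reads per library. The list was chosen with earlier results of these data known, so its sum is no test of the tissue. Pe day 0 replicate 3 stood apart. Its ovary list summed to 129 RPM, against 0 to 27.5 RPM in the other 8 libraries, and miR-989-3p had 96 reads there and 0 elsewhere. Of the 72 scarce miRNAs below the filter, 13 were listed only there. It was also the deepest library, at 1238105 reads against a median of 497997, and the part of depth in that count was not tested. The 5 most abundant miRNAs took 92.9% to 96.2% of all reads, so changes are shares of what was sequenced. In bulk tissue, fewer cells of a type and less RNA per cell cannot be told apart.

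At the late stage, 2 miRNAs rose: miR-1-3p, the muscle miRNA that is conserved across animals, and miR-34-5p, known in flies for its part in ageing and brain maintenance. They were the 2 of 73 miRNAs (2.74%) that passed an adjusted p of 0.05 for Pe day 3 over Pe day 0, by limma with Benjamini-Hochberg adjustment over all miRNAs tested. None fell by that rule (0%). At an unadjusted p of 0.05 there were 13 (17.8%), and the median log2 change over all 73 was 0.01, with 37 above 0 and 36 below. Under scaling by the deposited RPM as they stand, that median was 0.22, and levels between stages are read relative to it.

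miR-1-3p is encoded on chromosome 2L at 20487441 to 20487531 on the plus strand, in an exon of lncRNA:CR45361 in the BDGP6.54 annotation. It had 288, 293 and 320 scaled RPM in Pe day 3 midguts, against 74.4, 109.7 and 129 in Pe day 0 midguts, with 102, 92.7 and 116 in mock midguts. Every Pe day 3 library lay above all 6 others, while the Pe day 0 and mock libraries overlapped. The log2 change was 1.52 ± 0.28 (SE), or 2.87-fold, for Pe day 3 over Pe day 0 (limma adjusted p = 4.57e-04). Against mock midguts it was 1.51 ± 0.28 (SE) for Pe day 3 (limma adjusted p = 2.70e-04) and -0.02 ± 0.28 (SE) for Pe day 0 (limma adjusted p = 0.987). These 3 contrasts share libraries and are not independent of each other. The muscle list held miR-1 and miR-133, so its sum of 267 to 382 RPM in Pe day 3, 64.2 to 140 RPM in Pe day 0 and 76.3 to 110 RPM in mock libraries was almost all miR-1-3p. Its other arm above 0, miR-133-3p, was at 0 reads in the 3 Pe day 3 libraries and had 2 reads in 1 Pe day 0 library, and the remaining 2 arms were at 0 in every library. The part of visceral muscle in the higher miR-1-3p was not tested.

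miR-34-5p lies on 3R at 10100936 to 10101034, plus strand, in an exon of lncRNA:CR43459, with mir-277 upstream by a gap of 814 bases and mir-317 upstream by 9718 bases. It had 5035, 8652 and 9492 scaled RPM in Pe day 3 midguts, 2495, 2722 and 1361 in Pe day 0 midguts, and 868, 1603 and 969 in mock midguts. The Pe day 3 libraries stood clear of the other 6, while 1 Pe day 0 library lay within the mock range. Pe day 3 over Pe day 0 gave a log2 change of 1.83 ± 0.33 (SE), or 3.55-fold (limma adjusted p = 0.00299). The corresponding changes against mock were 2.75 ± 0.33 (SE) for Pe day 3 (limma adjusted p = 8.27e-05) and 0.92 ± 0.33 (SE) for Pe day 0, which missed the threshold (limma adjusted p = 0.103). In the authors' deposited table, the difference between its Pe day 3 and Pe day 0 values against mock was 1.87 for miR-34-5p and 1.55 for miR-1-3p on the log2 scale. Both miRNAs passed the threshold in all 21 alternative analyses, with log2 changes between 1.51 and 2.11 for miR-34-5p and between 1.31 and 1.73 for miR-1-3p. Leaving out Pe day 0 replicate 3, the library with ovary miRNAs, gave 1.51 for miR-34-5p (limma adjusted p = 1.62e-06) and 1.68 for miR-1-3p (limma adjusted p = 6.85e-05).

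**Figure D1:**
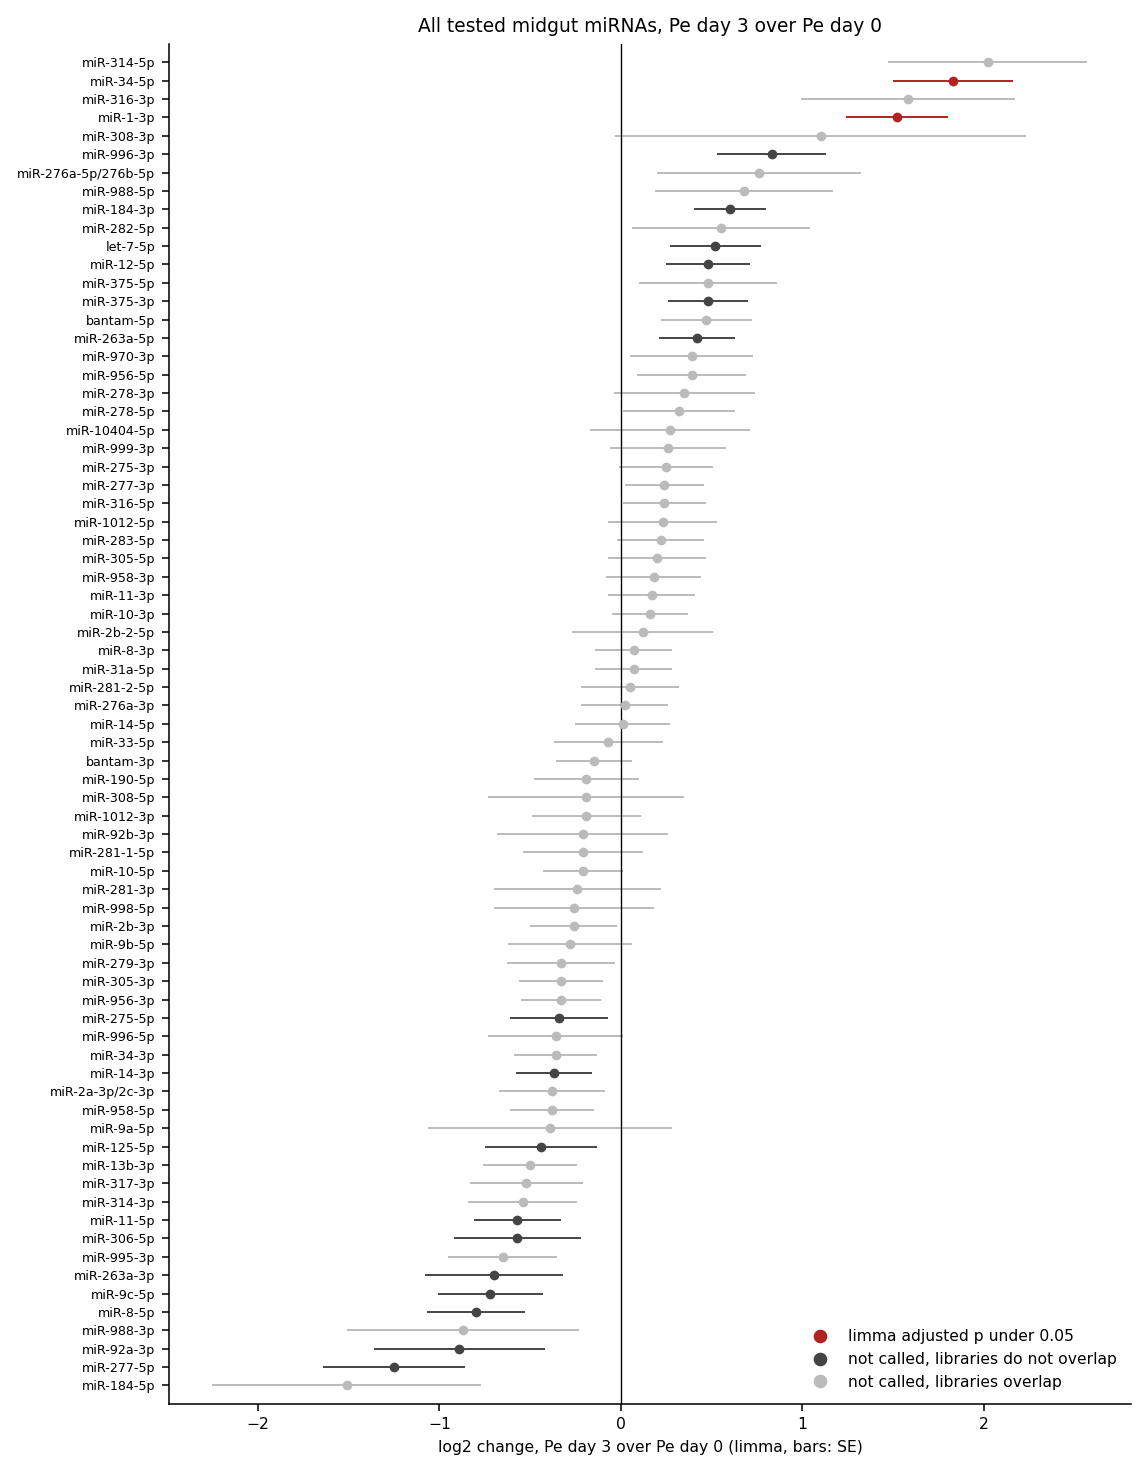
Log2 change of each of the 73 tested miRNAs for Pe day 3 over Pe day 0 midguts on the x axis, ordered from the highest at the top, with bars of 1 SE from limma. miR-34-5p at 1.83 and miR-1-3p at 1.52 are the 2 that passed the threshold, and miR-314-5p at 2.02 lies above them with a wider bar.

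The partners of miR-34-5p did not move with it beyond the threshold. From the other arm of the same hairpin, miR-34-3p had 881, 1076 and 808 scaled RPM in Pe day 3 midguts, against 1064, 1299 and 1186 in Pe day 0 midguts and 511, 731 and 776 in mock midguts. The Pe day 3 and Pe day 0 values overlapped, and the log2 change was -0.36 ± 0.23 (SE; limma adjusted p = 0.36), whereas Pe day 0 over mock was 0.83 ± 0.23 (SE; limma adjusted p = 0.029), 1 of 3 calls in that contrast (4.11%), of which 2 were higher (2.74%) and 1 was lower (1.37%). That call held in 6 of 19 alternative analyses. miR-277-3p, which in flies regulates breakdown of branched-chain amino acids, changed by 0.24 ± 0.22 (SE; limma adjusted p = 0.514). Its minor partner miR-277-5p had 27.4, 23.7 and 18.6 scaled RPM in Pe day 3 midguts, against 64.4, 82.3 and 40.8 in Pe day 0 midguts and 47.2, 27.5 and 25.3 in mock midguts. Those Pe groups did not overlap, yet the log2 change of -1.25 ± 0.39 (SE) missed the threshold (limma adjusted p = 0.0696). miR-317-3p, whose loss in flies raises Toll immune signalling, gave -0.52 ± 0.31 (SE; limma adjusted p = 0.342). Thus 1 of the 5 tested arms of this cluster rose and 4 did not pass, beside 2 of all 73 (2.74%), with a median log2 change of -0.36 beside 0.01 over all 73.

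A late rise was also looked for without a test, as a miRNA whose 3 Pe day 3 libraries all exceeded the other 6. Of the 73 miRNAs, 4 met this (5.48%), miR-1-3p, miR-34-5p, miR-996-3p and miR-12-5p, and the same 4 met it under each of 3 other scalings, with the RPM as deposited giving 7 in all. Leaving out Pe day 3 replicate 1 or Pe day 0 replicate 2 gave 8, though a group with fewer libraries meets this rule more easily. The share of all 73 whose Pe day 3 libraries simply lay above the 3 Pe day 0 libraries was 11% (8 miRNAs), and 13.7% (10 miRNAs) lay below. Together these made 18 miRNAs (24.7%), and the 2 called miRNAs are among them.

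miR-996-3p shares its seed with miR-279-3p, which restrains JAK/STAT signalling in the fly ovary. It is encoded at 3R 29217184 to 29217280 on the plus strand, in the exon of lncRNA:CR31044 that also carries mir-279. Its levels were 212, 241 and 142 scaled RPM in Pe day 3 midguts, 119, 103 and 99.7 in Pe day 0 midguts, and 77.3, 120.2 and 61.1 in mock midguts. The Pe day 3 libraries were the highest 3 of the 9, though the lowest of them, at 142, was close to the highest mock library. The log2 change of 0.83 ± 0.30 (SE) over Pe day 0 missed the threshold (limma adjusted p = 0.103). Pe day 3 over mock gave 1.18 ± 0.30 (SE; limma adjusted p = 0.0085), 1 of 13 calls in that contrast (17.8%). Neither of the other tested arms of this cluster passed: miR-279-3p changed by -0.33 ± 0.30 (SE; limma adjusted p = 0.516) and miR-996-5p by -0.36 ± 0.37 (SE; limma adjusted p = 0.55), and both turned slightly positive, to 0.05 and 0.06, without Pe day 3 replicate 3.

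miR-12-5p comes from an intron of Gmap on X at 15509473 to 15509546, plus strand, in a cluster with mir-304 and mir-283. It measured 855, 698 and 793 scaled RPM in Pe day 3 midguts, 492, 593 and 594 in Pe day 0 midguts, and 394, 441 and 533 in mock midguts. Its Pe groups were separate, and the Pe day 0 libraries lay partly within the mock range. The log2 change was 0.48 ± 0.23 (SE) over Pe day 0 (limma adjusted p = 0.231) and 0.78 ± 0.23 (SE) over mock (limma adjusted p = 0.0162). Its cluster mate miR-283-5p changed by 0.22 ± 0.24 (SE; limma adjusted p = 0.556), so neither of the 2 tested arms of this cluster passed. The let-7 complex, which times developmental transitions in flies, split: let-7-5p had 694, 771 and 466 scaled RPM in Pe day 3 midguts, against 418, 456 and 445 in Pe day 0 midguts and 453, 619 and 329 in mock midguts. Every Pe day 3 library exceeded every Pe day 0 library, replicate 3 by little. The mock libraries spanned the Pe day 0 range, and of the Pe day 3 libraries only replicate 3 lay within the mock range. The log2 change of let-7-5p was 0.52 ± 0.25 (SE; limma adjusted p = 0.262), and that of miR-125-5p, from the same primary transcript, was -0.44 ± 0.31 (SE; limma adjusted p = 0.415).

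**Figure D2:**
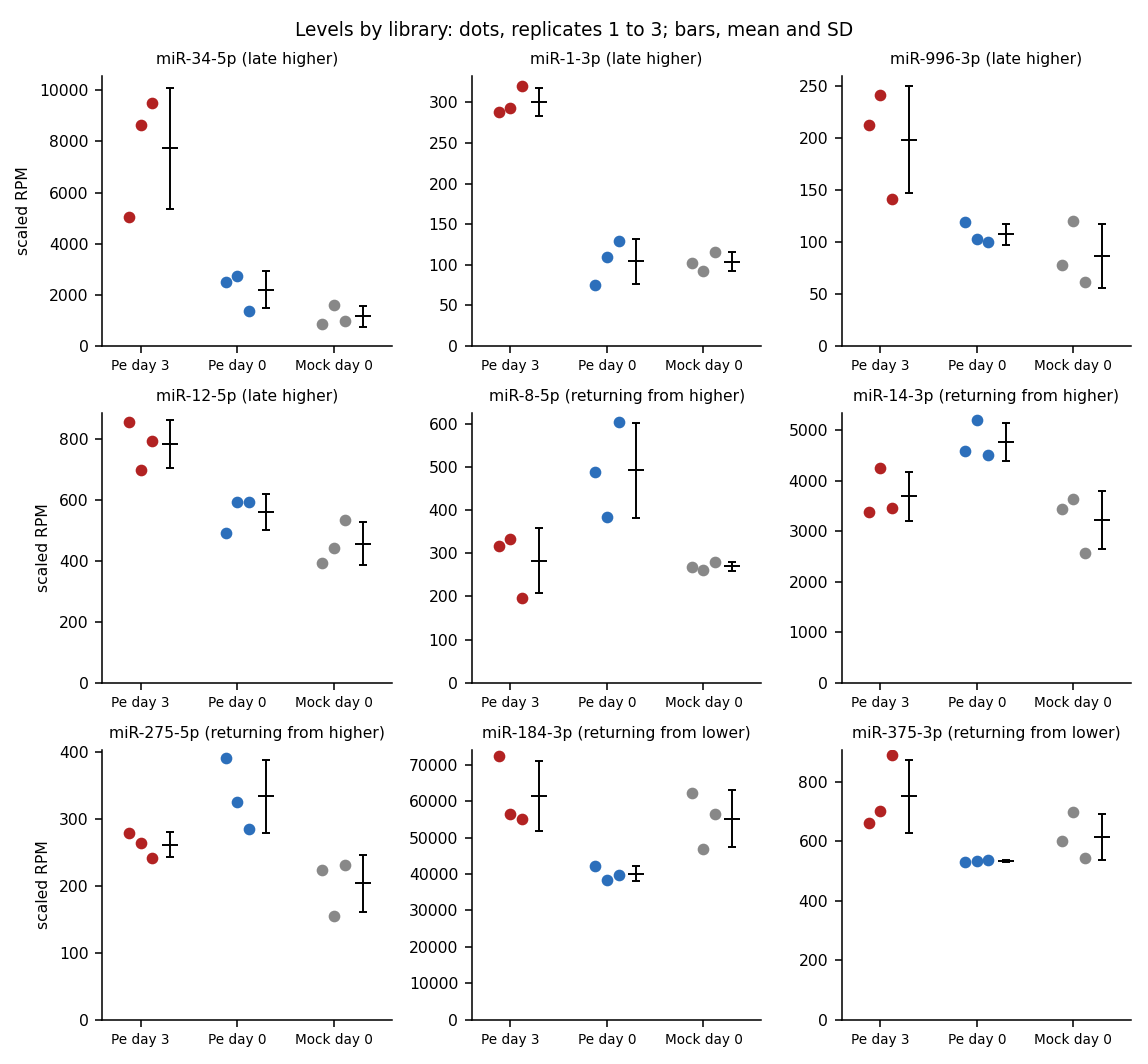
Scaled RPM on the y axis for 9 miRNAs named for a late rise or a return, 1 dot per library for Pe day 3, Pe day 0 and mock day 0, with the group mean and SD as bars beside the dots. The 3 Pe day 3 points of miR-1-3p, from 288 to 320, stand above all others, and those of miR-184-3p lie above the Pe day 0 points, 2 of them within the mock range and 1 above it.

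The change with the largest fitted size was one that missed the threshold, miR-314-5p, which was singled out after its values were seen. Its hairpin lies at 3L 11773012 to 11773101 on the plus strand, 629 bases from mir-956 on the opposite strand. It had 157, 613 and 499 scaled RPM in Pe day 3 midguts, 80.1, 157.7 and 51.4 in Pe day 0 midguts, and 90.5, 130.2 and 67.4 in mock midguts. Pe day 3 replicates 2 and 3 were far above the rest and replicate 1 was level with the highest Pe day 0 library. The neuron list, with 3 of 6 arms above 0 and none past the filter, summed to 15, 40 and 53.4 RPM in Pe day 3 libraries. It summed to 8.08 to 18.5 RPM in Pe day 0 and 5.51 to 16.1 RPM in mock libraries. In Pe day 3 replicates 2 and 3 that sum was miR-7-5p alone, at 16 and 12 reads. miR-957-3p had 0 reads in those replicates and 13 in replicate 1, and miR-7-3p had 0 in every Pe day 3 library. The part of neurons in the higher miR-314-5p was not tested. Both arms of miR-124, the defining neuronal miRNA, were at 0 in every library. The log2 change was 2.02 ± 0.55 (SE; limma adjusted p = 0.0696), and without Pe day 3 replicate 1 it was 2.61 (limma adjusted p = 8.75e-07). Over its 21 alternative analyses it passed in 11, with a limma adjusted p between 8.75e-07 and 0.221. Pe day 3 over mock gave 1.93 ± 0.55 (SE; limma adjusted p = 0.0372), 1 of 13 calls in that contrast (17.8%). That call held in 12 of 19 alternative analyses. The other arm, miR-314-3p, had 576, 245 and 253 scaled RPM in Pe day 3 midguts, against 640, 381 and 457 in Pe day 0 midguts and 419, 371 and 499 in mock midguts, a log2 change of -0.54 ± 0.30 (SE; limma adjusted p = 0.287). In the same replicates 2 and 3, that arm was the lowest of all 9 libraries.

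A return was described as 3 Pe day 0 libraries that lay all above or all below both the Pe day 3 and the mock libraries. From below, 2 of 73 met it (2.74%), miR-184-3p and miR-375-3p. miR-184-3p, which in flies is needed for egg production, had 72354, 56482 and 55018 scaled RPM in Pe day 3 midguts, against 42248, 38253 and 39726 in Pe day 0 midguts and 62191, 46822 and 56580 in mock midguts. The Pe day 0 libraries formed the low end and the Pe day 3 libraries overlapped the mock libraries. It made up 6.81% ± 0.30 of reads in Pe day 3, 3.89% ± 0.32 in Pe day 0 and 5.07% ± 0.37 in mock libraries (SD, n = 3 each). The log2 change was 0.60 ± 0.20 (SE) for Pe day 3 over Pe day 0 (limma adjusted p = 0.0696). For Pe day 0 over mock it was -0.45 ± 0.20 (SE; limma adjusted p = 0.158), so neither step passed by limma. The authors' deposited values for Pe day 0 over mock were -0.65 with an adjusted p of 0.00176 from their own test. Their Pe day 3 over mock value was -0.02 (adjusted p = 0.977, same test). With the RPM as deposited, the late step was 0.81 and passed (limma adjusted p = 2.98e-04), beside a median of 0.22 over all 73 on that scale. With the RPM as deposited the Pe day 3 libraries, at 6.72%, 7.15% and 6.57% of reads, also lay above all mock libraries, at 4.66%, 5.15% and 5.39%. On that scale the median over all 73 rose at both steps, by 0.22 for Pe day 3 over Pe day 0 and by 0.24 for Pe day 0 over mock. These shares therefore do not show that miR-184-3p went past the mock level relative to the other miRNAs. With TMM scaling, Pe day 3 over mock was 0.15 ± 0.20 (SE; limma adjusted p = 0.637).

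miR-375-3p, whose mammalian counterpart marks hormone-secreting islet cells, had 661, 704 and 890.0 scaled RPM in Pe day 3 midguts, 529, 535 and 536 in Pe day 0 midguts, and 602, 699 and 544 in mock midguts. The Pe day 0 libraries were tightly grouped just under the lowest mock library. Its log2 change was 0.48 ± 0.22 (SE) over Pe day 0 (limma adjusted p = 0.231), and with the RPM as deposited it no longer met the return pattern.

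From above, 4 of 73 met the return pattern (5.48%), miR-8-5p, miR-14-3p, miR-275-5p and miR-263a-3p. miR-8-5p is the minor arm of the hairpin that gives miR-8-3p, the fly counterpart of the mammalian miR-200 family. It had 318, 334 and 197 scaled RPM in Pe day 3 midguts, 489, 384 and 605 in Pe day 0 midguts, and 267.8, 260.5 and 280.3 in mock midguts. The mock libraries lay inside the Pe day 3 range and the Pe day 0 libraries above it. Both steps missed the threshold, at -0.80 ± 0.27 (SE) for Pe day 3 over Pe day 0 (limma adjusted p = 0.0696) and 0.84 ± 0.27 (SE) for Pe day 0 over mock (limma adjusted p = 0.061). The major arm miR-8-3p changed by 0.07 ± 0.21 (SE; limma adjusted p = 0.796), and by -0.02 when libraries were scaled without the 5 most abundant miRNAs.

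miR-14-3p, which in flies limits cell death and fat storage, had 3375, 4252 and 3452 scaled RPM in Pe day 3 midguts, 4592, 5207 and 4515 in Pe day 0 midguts, and 3444, 3641 and 2565 in mock midguts. The Pe day 3 libraries overlapped the mock libraries, with a log2 change of -0.37 ± 0.21 (SE; limma adjusted p = 0.302). miR-275-5p had 279, 265 and 242 scaled RPM in Pe day 3 midguts, against 392, 326 and 285 in Pe day 0 midguts and 224, 155 and 232 in mock midguts. Its 3 groups did not overlap, so it stood between the others late (log2 change -0.34 ± 0.27 SE, limma adjusted p = 0.453). miR-263a-3p, with a log2 change of -0.70 ± 0.38 (SE; limma adjusted p = 0.273), was the 1 of these 4 that met the pattern under all 3 other scalings, and the other 3 lost it with the RPM as deposited. It was also the scarcest of the 4, down to 9 reads in a library, and a filter of 100 RPM removed it. Its levels were 43.6, 17.8 and 37.2 scaled RPM in Pe day 3, 55.8, 54.8 and 48.3 in Pe day 0, and 33.9, 37.6 and 25.3 in mock midguts.

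For other miRNAs, both Pe groups lay on the same side of the mock group. All Pe day 3 and all Pe day 0 libraries lay above the mock libraries for 5 of 73 (6.85%), miR-10404-5p, miR-275-3p, miR-275-5p, miR-305-5p and miR-34-3p, and below them for 4 (5.48%), miR-281-1-5p, miR-281-2-5p, miR-2b-3p and miR-958-5p. The first count was 9 with the RPM as deposited, 2 with median-of-ratios factors, 3 when scaled without the 5 most abundant miRNAs, 2 without Pe day 3 replicate 2 and 11 without mock replicate 2. The second was 2 with the RPM as deposited, 7 when scaled without the 5 most abundant and 7 without mock replicate 1. A group with fewer libraries meets such a pattern more easily. Under all 3 other scalings the pattern held for miR-10404-5p, miR-275-3p, miR-281-1-5p and miR-281-2-5p. miR-10404-5p, which derives from a ribosomal RNA spacer, had 32.4, 65.3 and 81.9 scaled RPM in Pe day 3 midguts, 32.9, 92.6 and 31.0 in Pe day 0 midguts, and 11.3, 10 and 8.43 in mock midguts. The Pe groups overlapped each other and lay above all mock libraries. Its log2 change was 0.27 ± 0.44 (SE; limma adjusted p = 0.652) between the stages, 2.11 ± 0.44 (SE) for Pe day 3 over mock (limma adjusted p = 8.71e-04) and 1.85 ± 0.44 (SE) for Pe day 0 over mock (limma adjusted p = 0.0149).

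miR-281-2-5p, from the adult midgut list, had 604, 631 and 749 scaled RPM in Pe day 3 midguts, 813, 401 and 791 in Pe day 0 midguts, and 1771, 1332 and 1009 in mock midguts. Again the Pe groups overlapped, here below all mock libraries. Between the stages the log2 change was 0.05 ± 0.27 (SE; limma adjusted p = 0.882; -0.04 when scaled without the 5 most abundant miRNAs), with -1.02 ± 0.27 (SE) for Pe day 3 over mock (limma adjusted p = 0.013) and -1.06 ± 0.27 (SE) for Pe day 0 over mock (limma adjusted p = 0.0208). The call in Pe day 0 over mock held in 10 of 19 alternative analyses for miR-281-2-5p, and in 10 of 18 for miR-10404-5p. In the stem cell cluster mir-275 and mir-305, none of the 4 arms passed between the stages (median log2 change -0.06), while Pe day 3 over mock passed for miR-275-3p at 0.89 ± 0.26 (SE; limma adjusted p = 0.0173) and for miR-305-5p at 0.79 ± 0.27 (SE; limma adjusted p = 0.0372), 2 of the 9 miRNAs of all 73 (12.3%) that passed as higher in that contrast. Those calls held in 14 of 19 alternative analyses for miR-275-3p and in 8 of 19 for miR-305-5p. miR-305-5p is the strand whose loss or excess alters stem cell division in the fly gut. It was the less abundant arm here, with a mean of 353 scaled RPM in Pe day 3 midguts against 2844 for miR-305-3p. miR-305-3p changed by -0.10 ± 0.23 (SE) for Pe day 3 over mock (limma adjusted p = 0.778).

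Among the miRNAs lower at the late stage without overlap and with at least 100 scaled RPM, miR-9c-5p and miR-11-5p remain to be given. miR-9c-5p had 146, 111 and 108 scaled RPM in Pe day 3 midguts, against 190.3, 161.1 and 263.5 in Pe day 0 midguts and 164, 145 and 99.0 in mock midguts. The stages were separate and mock libraries overlapped both, with a log2 change of -0.72 ± 0.29 (SE; limma adjusted p = 0.157). Its cluster mates miR-306-5p at -0.57 ± 0.35 (SE; limma adjusted p = 0.342) and miR-9b-5p at -0.28 ± 0.34 (SE; limma adjusted p = 0.606) also missed the threshold, giving a median of -0.57 over the 3 tested arms of the cluster, none called. miR-11-5p is the minor arm of the hairpin in the E2f1 gene whose major arm restrains cell-death genes. It had 603, 386 and 331 scaled RPM in Pe day 3 midguts, against 657, 603 and 649 in Pe day 0 midguts and 545, 596 and 668 in mock midguts. Pe day 3 replicate 1 lay level with the lowest Pe day 0 library, and the log2 change was -0.57 ± 0.24 (SE; limma adjusted p = 0.163). A late fall, with all Pe day 3 libraries below the other 6, was met by 2 of 73 (2.74%), the low-level miR-125-5p and miR-92a-3p, and by none with the RPM as deposited.

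The ratio of the 5p to the 3p arm of a hairpin is taken within a library. It is therefore free of the scaling between libraries except through the fixed pseudocount of 4.02 RPM added to each arm, which weighs on scarce arms. Of 21 hairpins with both arms tested, 7 passed an adjusted p of 0.05 for Pe day 3 over Pe day 0 (33.3%), with a higher 5p share in 3 and a lower one in 4. Of the 21, 11 had an unadjusted p under 0.05 (52.4%), and in 10 the libraries of the stages did not overlap (47.6%). The same test passed for 0 of 21 hairpins in Pe day 0 over mock (0%), and for 4 in Pe day 3 over mock (19%), a contrast that shares its Pe day 3 libraries.

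For miR-34, the log2 ratio of 5p over 3p was 2.51, 3 and 3.55 in Pe day 3 midguts, against 1.23, 1.06 and 0.20 in Pe day 0 midguts and 0.76, 1.13 and 0.32 in mock midguts. Pe day 3 was separate from the other groups, which overlapped. On average the 5p arm had 8.11 times the 3p level in Pe day 3 and 1.78 times in Pe day 0, a log2 change of 2.19 ± 0.49 (SE; limma adjusted p = 0.00149). This was the 1 hairpin of 12 to pass when both arms had to reach 100 RPM, and it passed in all 16 of its alternatives. Of the other called hairpins, given below, miR-8 was among those 12 and missed. miR-277, miR-996, miR-184, miR-263a and miR-988 had an arm too scarce to be tested at that level.

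For miR-277, the neighbour on the same transcript, the log2 ratio was -4.58, -5.17 and -5.10 in Pe day 3 midguts, against -3.24, -3.19 and -3.88 in Pe day 0 midguts and -3.55, -4.58 and -4.55 in mock midguts. The stages were separate, and 2 mock libraries lay at the edge of the Pe day 3 range. The change was -1.52 ± 0.41 (SE; limma adjusted p = 0.00752), a shift to the major 3p arm that passed in 13 of 15 alternatives. It did not pass without Pe day 0 replicate 1 or without replicate 2, and its 5p arm was scarce, down to 5 reads in a library. miR-996 gave -1.54, -2.16 and -2.49 in Pe day 3 midguts, against -0.96, -0.78 and -0.83 in Pe day 0 midguts and -0.55, -1.14 and -0.71 in mock midguts. Here Pe day 3 lay below both other groups in every library, and the change of -1.21 ± 0.35 (SE; limma adjusted p = 0.00855) passed in 14 of 15 alternatives. It did not pass without Pe day 0 replicate 2, and its 5p arm went down to 6 reads in a library.

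**Figure D3:**
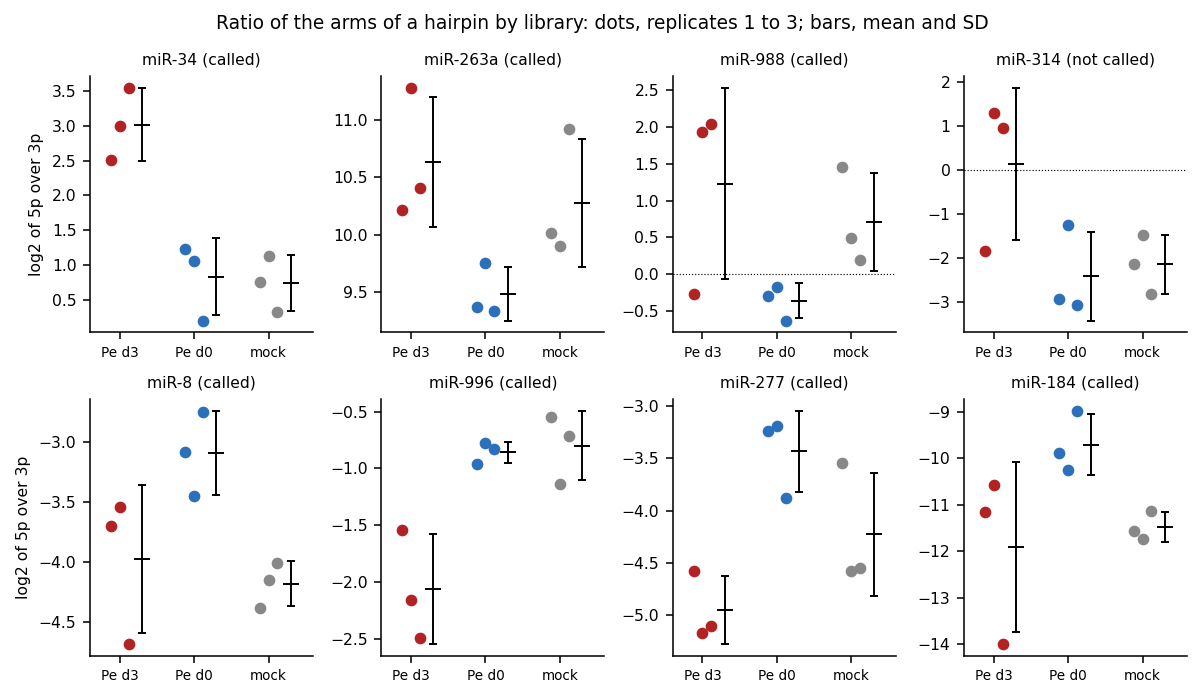
Log2 ratio of the 5p over the 3p arm in each library for the hairpins that passed the threshold and for miR-314, 1 dot per library for Pe day 3, Pe day 0 and mock day 0, with the group mean and SD as bars beside the dots. For miR-34 the Pe day 3 points lie between 2.51 and 3.55, all above the others, and for miR-996 they lie between -2.49 and -1.54, all below.

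The remaining 4 called ratios were less firm. miR-184 changed by -2.21 ± 0.74 (SE; limma adjusted p = 0.0294), with its 5p arm at 0 reads in Pe day 3 replicate 3, where the pseudocount sets the ratio, and passed in 5 of 15 alternatives. miR-8 changed by -0.87 ± 0.34 (SE; limma adjusted p = 0.0426) and passed in 7 of 16. miR-263a, whose 5p arm targets sodium channel subunits in the fly gut, changed by 1.15 ± 0.45 (SE; limma adjusted p = 0.0426) and passed in 6 of 15. These 3 had Pe day 0 ratios outside both other groups. miR-988 changed by 1.6 ± 0.54 (SE; limma adjusted p = 0.0311), but its Pe day 3 and Pe day 0 libraries overlapped and it passed in 6 of 15. miR-314 had the largest change, 2.56 ± 0.96 (SE), and did not pass (limma adjusted p = 0.0791). Its log2 ratio was -1.85, 1.31 and 0.97 in Pe day 3 midguts, -2.93, -1.25 and -3.06 in Pe day 0 midguts, and -2.14, -1.48 and -2.81 in mock midguts. In Pe day 3 replicates 2 and 3 the 5p arm was thus the more abundant one, and in the other 7 libraries it was the 3p arm. Leaving out Pe day 3 replicate 1 gave 11 called ratios, leaving out Pe day 3 replicate 3 gave 3, and leaving out Pe day 0 replicates 1, 2 and 3 in turn gave 2, 1 and 3, where the last 3 were miR-34, miR-277 and miR-996.

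**Figure D4:**
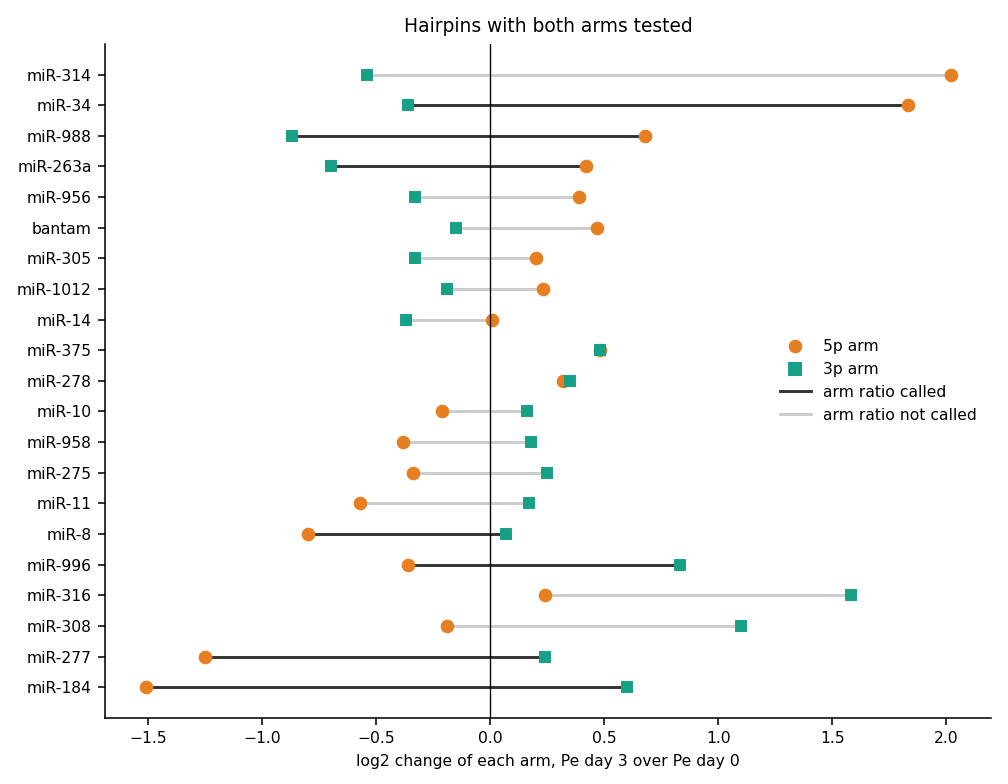
Log2 change of each arm for Pe day 3 over Pe day 0 on the x axis, for the 21 hairpins with both arms tested, ordered by the change of their ratio, with circles for 5p arms, squares for 3p arms and a dark line where the ratio passed the threshold. miR-34 lies at -0.36 for its 3p arm and 1.83 for its 5p arm, and 18 of the 21 hairpins have arms whose changes differ in sign. Those signs depend on the scaling between libraries, and some arms lie near 0, such as miR-8-3p at 0.07 and miR-14-5p at 0.01.

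The most abundant miRNAs kept most of the reads at each stage. miR-956-3p made up 71.6% ± 2.83 of reads in Pe day 3, 77.9% ± 3.10 in Pe day 0 and 74.8% ± 3.29 in mock libraries (SD, n = 3 each), a log2 change of -0.33 ± 0.22 (SE; limma adjusted p = 0.389) with a 95% interval of -0.78 to 0.12. miR-263a-5p had 57079, 52017 and 55234 scaled RPM in Pe day 3 midguts, against 39901, 51167 and 33747 in Pe day 0 midguts and 40881, 39449 and 57246 in mock midguts. The Pe groups were just separate, and mock libraries spanned both, for a log2 change of 0.42 ± 0.21 (SE; limma adjusted p = 0.27). miR-10-5p, from the Hox cluster, changed by -0.21 ± 0.22 (SE; limma adjusted p = 0.55; 0.00 with the RPM as deposited), and miR-31a-5p by 0.07 ± 0.21 (SE; limma adjusted p = 0.796; -0.02 when scaled without the 5 most abundant).

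By function, few list members passed. Of 15 tested arms of miRNAs tied to stem cells and progenitors, 0 were called, with a median log2 change of 0.07, and 2 lay above and 4 below Pe day 0 without overlap, beside 8 (11%) above and 10 (13.7%) below over all 73. Of 17 arms tied to metabolism, insulin and growth, 0 were called and the median was 0.02. Of 13 tied to immunity and stress, 1 rose, miR-34-5p, and the median was -0.15. The K box list takes hairpins whose 3p arms share a seed against Notch target genes. Its 8 tested arms, 3 of them opposite arms without that seed, had a median of -0.22 with 0 called, and the highest, miR-308-3p at 1.10 ± 1.13 (SE; limma adjusted p = 0.556), ranged from 0 to 163 reads over the libraries. The 2 tested miR-92 family arms stood at -0.89 ± 0.47 for miR-92a-3p and -0.21 ± 0.47 for miR-92b-3p (SE; limma adjusted p = 0.273 and 0.751), and miR-92b-3p turned to 0.31 without Pe day 0 replicate 3. The mirtrons, which are spliced introns rather than products of Drosha, had 2 tested arms, both from miR-1012, at 0.23 ± 0.30 and -0.19 ± 0.30 (SE; limma adjusted p = 0.613 and 0.643), and the second was 0.01 with the RPM as deposited. The corresponding count over all 73 was 2 called with a median of 0.01.

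The count of called miRNAs depended on some settings. It was 4 with the RPM as deposited and 4 when libraries were scaled without the 5 most abundant miRNAs, where 3 were higher and 1, miR-277-5p, lower. Leaving out Pe day 3 replicate 1 gave 7, and leaving out Pe day 0 replicate 2 or 3 gave 4.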

How the data were processed

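Small RNA libraries of 9 adult midgut samples in 3 groups of 3 were analysed. The labels' protocols give TRIzol extraction and the Illumina TruSeq small RNA kit. The aligner settings and genome build are not given in the sources used here; per the submitters' processing notes, DESeq2 1.22.0 was a tool used. The authors deposited RPM per miRNA, which sum to 1e+06 per library. Their second deposited table holds a mean signal per miRNA, log2 fold changes, a test score and raw and adjusted p-values for 2 contrasts, whose log2 values matched Pe day 0 over mock and Pe day 3 over mock.

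From the steps between RPM values, read numbers were recovered (smallest listed value 2 reads, all within 1e-04 of whole) and used for depth, scaling and a limma voom alternative only; the limit for a count of 0 covers counting error only, and the printed 95% interval comes from limma. RPM were TMM-scaled (trims of 30% and 5%) and fitted as log2(scaled RPM + 4.02), which understates the changes of low miRNAs. The filter of 10 reads at the median depth of 497997 in 3 libraries kept 73 miRNAs with 99.96% of reads. limma 3.58.1 in R 4.3.3 (trended, robust empirical Bayes) used 1 model of 3 groups with 6 residual degrees of freedom and two-sided, Benjamini-Hochberg adjusted p-values. Arm ratios used the same test on log2((5p + 4.02)/(3p + 4.02)) RPM. The fits were tested on simulated data. Alternatives changed scaling, pseudocount, filter, libraries, variance model and replicate block.

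Named miRNAs were those called, the 10 largest changes without overlap in each direction at 100 scaled RPM or more, late and returning miRNAs at that level, the 5 most abundant, up to 4 members per list, hairpins with called arm ratios, and family or cluster mates. The members, lists and rule were chosen with earlier results of these data known. Some miRNAs were added after their values were seen. Hairpin coordinates come from matching names to the Ensembl annotation of BDGP6.54 (54 of 54 names). Mature sequences were not used here.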

Additional observations from a re-analysis of the deposited data

Results flagged for a closer look

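A mirtron below the filter was listed in all 3 Pe day 3 libraries and in none of the other 6. miR-1007-5p had 8, 17 and 16 reads, or 9.26, 42.5 and 71.2 RPM (mean 41 ± 31, SD, n = 3), in Pe day 3 midguts, and 0 reads in the 3 Pe day 0 and 3 mock midguts, where the limit that a count of 0 allows, 3 reads, was 2.42 to 10.1 RPM. Its other arm, miR-1007-3p, had 3, 8 and 0 reads in Pe day 3 midguts and 0 reads in the others. The hairpin lies on X at 21296385 to 21296449 on the minus strand, in an intron of Abca3 in BDGP6.54. It was singled out after its values were seen, and the other 71 of the 72 scarce miRNAs above 0 did not have this pattern at 3 or more reads in each library.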

How the results depend on the processing

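miR-1-3p and miR-34-5p rose in all 21 alternatives, and the called miRNAs numbered 4 with the RPM as deposited, 4 when scaled without the 5 most abundant miRNAs, 4 with no filter, 4 with no trend and no robust step, 6 with a replicate block in all 9 libraries and 5 with the block in the 6 Pe libraries. Correlations of deviations between Pe day 3 and Pe day 0 were 0.22, 0.17 and -0.26 for replicates 1 to 3. Of 3 Pe day 3 libraries, 2 correlated best with another number. So few libraries cannot decide whether the replicate numbers pair them. With the block in all 9 libraries, some SEs fell, from 0.22 to 0.1 for miR-956-3p and from 0.55 to 0.39 for miR-314-5p, which then passed (limma adjusted p = 0.00905). Others rose, from 0.31 to 0.36 for miR-317-3p and from 0.74 to 0.79 for miR-184-5p. With the block in all 9 libraries 7 arm ratios were called, 3 of them among the 7 called without it (miR-34, miR-277 and miR-996). miRNAs above Pe day 0 without overlap numbered 13 with the RPM as deposited, those below 4 with the RPM as deposited and 5 with a filter of 100 RPM. Late rises numbered 7 with the RPM as deposited; late falls 0 with the RPM as deposited, 4 with median-of-ratios factors, 5 without the 5 most abundant and 0 with the filter of 100 RPM. Returns from above numbered 2 with the RPM as deposited and returns from below 4 with median-of-ratios factors. Called arm ratios numbered 3 with a pseudocount of 1 read, 1 with both arms at 100 RPM or more and 3 with no trend and no robust step. The cause of these moves was not tested, except that a stricter filter tests fewer miRNAs. A group with a library left out meets the non-overlap patterns more easily. Higher pattern counts alone therefore do not mark that library as unusual. Leaving out each library gave 2 to 7 called miRNAs, 7 to 18 above and 8 to 20 below without overlap, 4 to 8 late rises, 2 to 7 late falls, 4 to 8 returns from above, 2 to 5 from below and 1 to 11 arm ratios. The highest values came without Pe day 3 replicate 1 for called miRNAs, those below, late rises, late falls and arm ratios, without Pe day 0 replicate 2 for those above, late rises and returns from below, and without Pe day 3 replicate 2 for returns from above. Directions near 0 that turned, none called, were miR-10-5p (0.00) and miR-1012-3p (0.01) with the RPM as deposited; miR-31a-5p (-0.02), miR-8-3p (-0.02) and miR-281-2-5p (-0.04) without the 5 most abundant; and, over the range on leaving out each library, miR-281-2-5p (-0.28 to 0.22), miR-92b-3p (-0.67 to 0.31), miR-31a-5p (-0.06 to 0.13), miR-279-3p (-0.66 to 0.05), miR-996-5p (-0.68 to 0.06), miR-1012-3p (-0.47 to 0.04) and miR-8-3p (-0.06 to 0.11). Depth limits the scarce arms most in Pe day 3 replicate 3, with 224873 reads.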
